A study of Mus musculus with 8 samples.

Results

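The subunits described here are those of the proteasome and of the COP9 signalosome in 8 mouse embryonic stem cell lines made by nuclear transfer. They were chosen by name, as every array probe whose annotated symbol starts with Psma, Psmb, Psmc, Psmd or Cops and a number, and were kept if detected on at least 2 of 8 arrays. A probe counts as detected where its deposited detection p-value, which is low for signals above the negative controls, is under 0.01. Of 68 such probes for 45 genes, 58 probes for 41 genes were measured, against 11671 measured probes among 25697 on the array. These comprise 45 probes of 33 genes with proteasome names, Psmc3ip included, and 13 probes of 8 COP9 genes. The set was selected on these same arrays because Psmd8 and Cops8 divide tNT lines 4 to 6 from the other 5 arrays, so those values are a description and carry no test. Psmc3ip entered through the rule and is counted among the 58 probes, but it is a meiotic recombination protein and no subunit.

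RNA of each line was hybridised to 1 Illumina bead array. The 6 tNT lines, labelled tetraploid, came from tetraploid nuclear transfer and carry the design numbers p17, p19, p25, p29, p18 and p25 for lines 1 to 6. These were taken as passage numbers, which count the splits of a culture. The 2 NT lines, labelled not tetraploid, came from nuclear transfer and have no such number. Nuclear transfer puts a somatic nucleus into an enucleated egg, and the series title speaks of 2 somatic nuclei sharing 1 egg cytoplasm. All 8 lines share the label mixed strain and a double sedimentation step, and each group member is 1 line. Donor cells, genotypes and ages are not given in the sources used here. Labels give no separate cultures of a line, so p-values rest on the spread between lines. That spread includes variation of culture, RNA preparation and array, which cannot be told apart here.

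Between 10449 and 10969 probes were detected on an array. All 8 genes fixed as embryonic stem cell markers, Pou5f1, Sox2 and Nanog among them, had a measured probe, and none of their probes passed the test between the groups. Of 10 fibroblast marker genes 5 were measured, with summed normalized intensities of 1728 to 2889 in tNT lines and 1747 and 1912 in NT lines. Line 2 had the highest sum, and Col1a2, Col3a1, Postn, Fn1 and S100a4 had no measured probe. Of 6 endothelial genes 4 were measured, with sums of 510.5 to 1324 in tNT lines and 656.8 and 684.2 in NT lines. The sum was highest in line 2, which was highest for Etv2 (9.19) and Robo4 (8.66). For Pecam1, line 2 was the lowest tNT line by both probes (7.58 and 6.615). For Tek it read 7.15, with only line 4 lower among tNT lines (6.99). No blood marker was measured. In such bulk RNA, fewer cells of a type and less RNA per cell cannot be told apart.

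The proteasome degrades proteins tagged with ubiquitin. Its 20S core is a barrel of alpha and beta rings whose catalytic beta subunits cut the substrate, and its 19S cap has a base of ATPases that unfold substrates and a lid that removes ubiquitin. The COP9 signalosome is built on the same plan as the lid, subunit for subunit, and removes the ubiquitin-like protein NEDD8 from cullin ubiquitin ligases. In interferon-exposed cells the catalytic subunits Psmb5, Psmb6 and Psmb7 are replaced by Psmb8, Psmb9 and Psmb10.

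Cops8, Psmd8 and Psmb5 are the subunits whose values separate lines 4 to 6 by more than 0.5 on the log2 scale. Their promoters are shown because these 3 genes divide the lines most widely among the members, and probe sequences were not used here. Each window spans 250 bases before to 50 bases after the gene's start, 5′ to 3′ on the gene's strand, from RefSeq on GRCm38.p6. The windows are chr1:90603175-90603474 (+) for Cops8, chr7:29180624-29180923 (-) for Psmd8 and chr14:54617946-54618245 (-) for Psmb5. Capitals mark a match to TGACNNNGC, the core of the antioxidant response element, which factors of the Nfe2l family bind.
Cops8: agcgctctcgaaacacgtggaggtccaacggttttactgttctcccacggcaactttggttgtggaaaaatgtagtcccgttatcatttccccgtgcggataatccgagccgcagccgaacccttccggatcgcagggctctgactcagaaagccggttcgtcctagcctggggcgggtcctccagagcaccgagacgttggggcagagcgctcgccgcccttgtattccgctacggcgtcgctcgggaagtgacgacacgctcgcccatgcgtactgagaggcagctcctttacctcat
Psmd8: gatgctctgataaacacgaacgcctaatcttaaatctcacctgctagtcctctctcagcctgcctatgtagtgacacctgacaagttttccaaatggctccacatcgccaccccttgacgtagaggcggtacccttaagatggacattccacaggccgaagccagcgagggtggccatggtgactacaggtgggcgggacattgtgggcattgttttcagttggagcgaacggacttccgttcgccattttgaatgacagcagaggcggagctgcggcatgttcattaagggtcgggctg
Psmb5: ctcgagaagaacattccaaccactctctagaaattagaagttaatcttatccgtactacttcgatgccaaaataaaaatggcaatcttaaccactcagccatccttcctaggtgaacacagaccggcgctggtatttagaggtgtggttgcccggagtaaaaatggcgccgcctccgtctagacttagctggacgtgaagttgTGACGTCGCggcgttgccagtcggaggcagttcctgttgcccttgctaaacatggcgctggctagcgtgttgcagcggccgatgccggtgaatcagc

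The Psmb5 window holds the motif on the gene's strand with its first base at -47 from the start, and no match lies in the Cops8 or Psmd8 window on either strand. Promoters were matched for 39 of the 45 genes, Psmc3ip included. The motif, searched on both strands, lies in 5 of 31 proteasome promoters (16.1%), those of Psmb5, Psmb6, Psmc6, Psmd9 and Psmd12. It lies in 1 of 7 COP9 promoters (14.3%), that of Cops7a, and in 14.0% of 27025 promoters of the table. A match describes letters and says nothing of binding. Nfe2l1, the factor known to raise proteasome genes when the proteasome is impaired, had values from 10.72 to 11.11 in tNT lines and of 10.77 and 10.58 in NT lines. Its difference of 0.26 did not pass the test (limma, adjusted p = 0.389). Its 3 highest values were those of lines 4 to 6, by 0.09 above the next array. Of all measured probes, 12.2% had lines 4 to 6 all above or all below the other arrays. Nfe2l2, of the same family, did not divide them, with 7.60, 7.23 and 7.24 in lines 4 to 6 and 7.33 in NT line 1. The part of either factor in the Psmb5 values was not tested.

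Cops8 is the small subunit that pairs with Psmd8 in the lid plan. Its single probe, ILMN_1218868, gave normalized log2 intensities of 9.83, 10.02 and 10.02 in tNT lines 4, 5 and 6. In tNT lines 1, 2 and 3 it gave 5.13, 5.19 and 4.57, and in the NT lines 5.12 and 5.21. The 3 lines lay above every other array, by 4.63 in the values as measured. The probe was not detected on the other 5 arrays, where its detection p-values ran from 0.0163 to 0.342, and was detected with a p-value of 0 on the other three. In the deposited intensities, before any normalization, the values were 970.0 to 1163 in lines 4 to 6 and 94.8 to 131.8 on the other arrays. The interval is therefore a bound. With each undetected value raised to the lowest detected value of its array, the lowest of lines 4 to 6 stood at least 20.1-fold above the highest other array (gap 4.33). Without lines 4 to 6, the difference between the labelled groups was -0.20, between readings that were all undetected.

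Psmd8, a lid subunit whose yeast counterpart is the last to enter the lid, ran the opposite way. Its single probe, ILMN_2678019, read 7.18, 7.33 and 6.95 in tNT lines 4, 5 and 6. It read 10.19, 10.34 and 10.18 in tNT lines 1, 2 and 3, and 10.28 and 10.04 in the NT lines. All 3 lay below every other array, with an empty interval of 2.70 (gap -2.70), the fifth widest of all probes. The probe was detected on all 8 arrays, at deposited intensities of 214.9 to 245.2 in lines 4 to 6 and 1088 to 1557 elsewhere. The labelled groups overlapped, with means of 8.69 in tNT and 10.16 in NT lines, and without lines 4 to 6 they differed by 0.07.

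**Figure D1:**
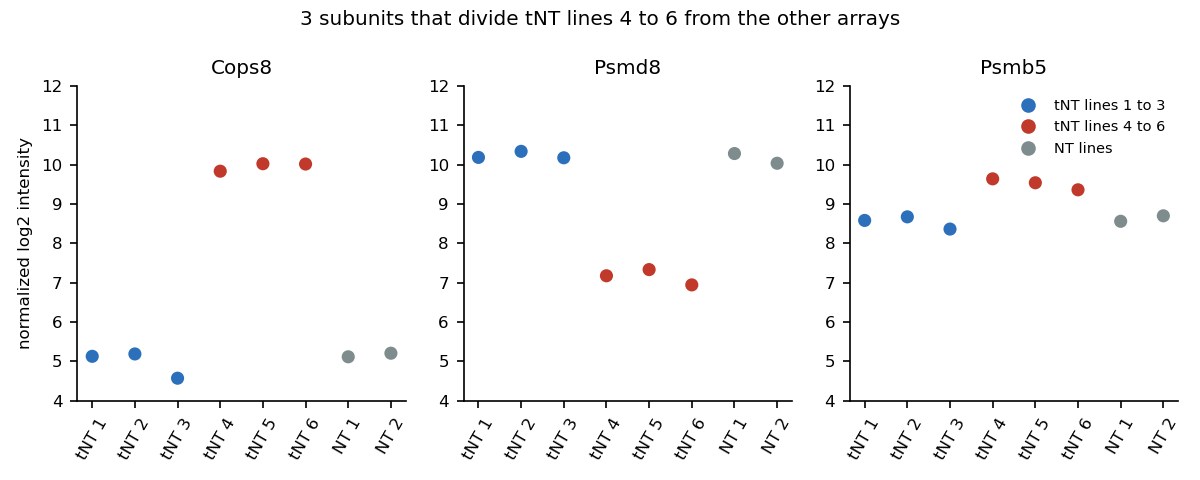
Normalized log2 intensity (vertical axis) of Cops8, Psmd8 and Psmb5 on each of the 8 arrays (horizontal axis), 1 point per array. tNT lines 4 to 6 lie above all others for Cops8 (9.83 to 10.02) and Psmb5 (9.36 to 9.64) and below all others for Psmd8 (6.95 to 7.33).

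A further subunit with a wide interval was found in 1 case. Psmb5, the chymotrypsin-like catalytic subunit of the 20S core, read 9.64, 9.54 and 9.36 in tNT lines 4, 5 and 6. It read 8.58, 8.67 and 8.36 in tNT lines 1, 2 and 3, and 8.56 and 8.70 in the NT lines. Again lines 4 to 6 were the 3 highest, with an empty interval of 0.66, and the labelled groups overlapped (difference 0.40 ± 0.34 SE, limma, adjusted p = 0.596). The next member in width was Psmc4, an ATPase of the base, with a much smaller gap of -0.17.

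Counted over all members, lines 4 to 6 lay entirely on one side of the other 5 arrays for 8 of 58 probes (13.8%), and 12.2% of all measured probes did so. Without Psmd8 and Cops8 the count was 6 of 56 (10.7%). A gap of at least 0.5 was found for 3 of 58 members (5.17%), against 0.891% of all measured probes. A gap of at least 1 was found for 2 members, Psmd8 and Cops8, against 0.257%, and these 2 are the ones the set was selected on. So 1 member that did not enter the selection, Psmb5, had a wide gap, and it was found by looking at this same division.

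The other 5 probes on one side had gaps of at most 0.17 in size. The caspase-like subunit Psmb6 read 11.98, 12.30 and 12.05 in lines 4, 5 and 6, just under the lowest of the other arrays at 12.43 (gap -0.13). Psmc3 and Psmc4, both base ATPases, were also lowest in lines 4 to 6, with gaps of -0.09 and -0.17. For Psmb10 1 of 2 probes (gap -0.12) and for the chaperone Psmd10 1 of 3 probes (gap 0.08) fell on one side. Their remaining probes did not.

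No second probe could be read for the 3 subunits, since Psmd8, Cops8 and Psmb5 have 1 probe each. Among the 14 member genes with at least 2 measured probes, none had lines 4 to 6 on one side by every probe, and 2 had them so by at least 1 probe. Over all measured probes, Psmd8 and Cops8 included, 30 had a gap of at least 1, of which 29 carry a gene name and 5 belong to a gene with another measured probe. For 0 of these 5 did another probe show a gap of that size in the same direction, and for 1 it lay on the same side. At a gap of at least 0.5, another probe followed with that gap for 6 of 30 and lay on the same side for 13 of 30. These counts describe the array and say nothing of a single gene.

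**Figure D2:**
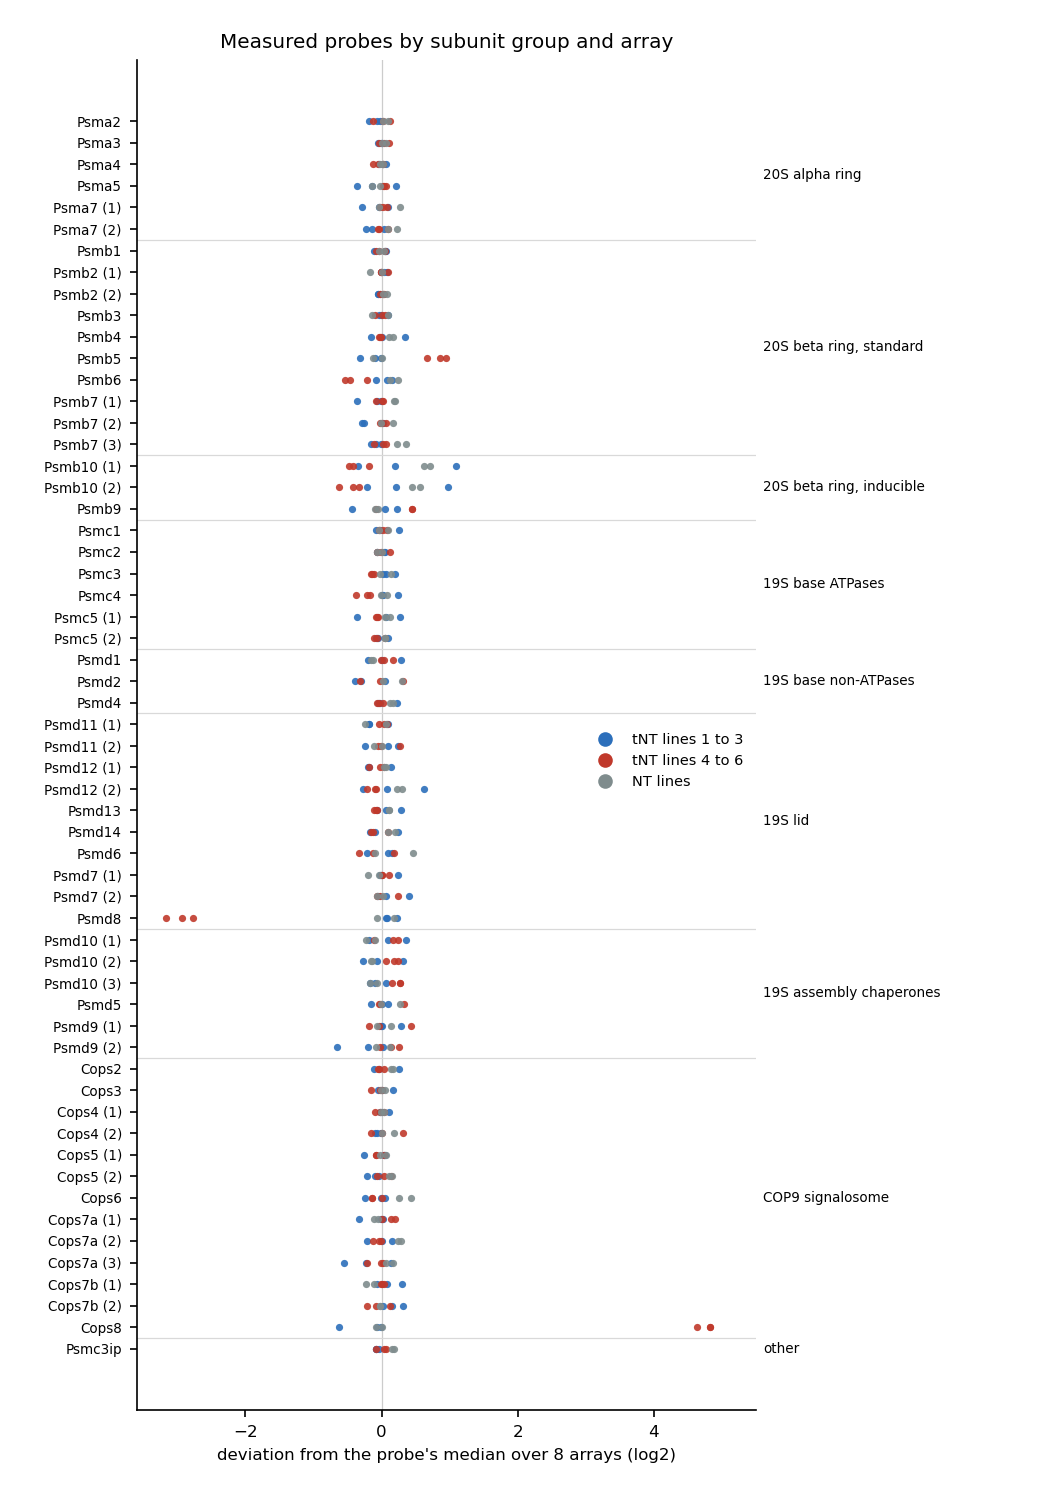
Deviation of each array from the probe's median over 8 arrays (horizontal axis, log2) for the 58 measured probes, by subunit group, with 1 point per array. Outside Cops8, Psmd8 and Psmb10 every point lies within 1 log2 unit of its median, and lines 4 to 6 stand apart by over 0.5 in 3 probes only.

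Neighbouring genes in RefSeq gene order were read for the 5 nearest measured genes on each side. Around Psmd8 on chromosome 7, lines 4 to 6 lay on one side for 3 of 17 probes. These were Eif3k (gap -0.11), 1 of 3 probes of Actn4 (-0.04) and 1 of 2 probes of Ppp1r14a. That Ppp1r14a probe was detected on 0 of lines 4 to 6 and on all 5 other arrays, and with undetected values at the lowest detected value no gap remained. Around Cops8 on chromosome 1 they did so for 2 of 13 probes, Inpp5d (0.26) and Rbm44 (0.14), and not for any of the 4 probes of its neighbour Ube2f. Of all measured probes 12.2% did so. None of these neighbours had a gap as wide as the subunit's own.

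Around Psmb5 on chromosome 14, 4 of 17 probes did so, beside the same 12.2% of all probes, and these neighbours were looked up after the values of Psmb5 were seen. Probe ILMN_2597332 of 1700123O20Rik read 7.41, 7.28 and 6.92 in lines 4, 5 and 6 and 4.41 to 4.64 elsewhere, where it was not detected. Its interval is thus a bound, at least 2.67-fold (gap 1.42) with undetected values at the lowest detected value. The gene's other probe, ILMN_2999447, ranged from 10.02 to 10.23 over the 8 arrays with lines 4 to 6 among the rest. Haus4, an augmin subunit of the spindle, had a gap of 0.74 and was detected on 3 of the other 5 arrays, and Rem2 had a gap of -0.15 and was detected on 1 of lines 4 to 6. For Homez, 1 of 2 probes was detected in lines 4 to 6 only, and no gap remained with undetected values at the lowest detected value.

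**Figure D3:**
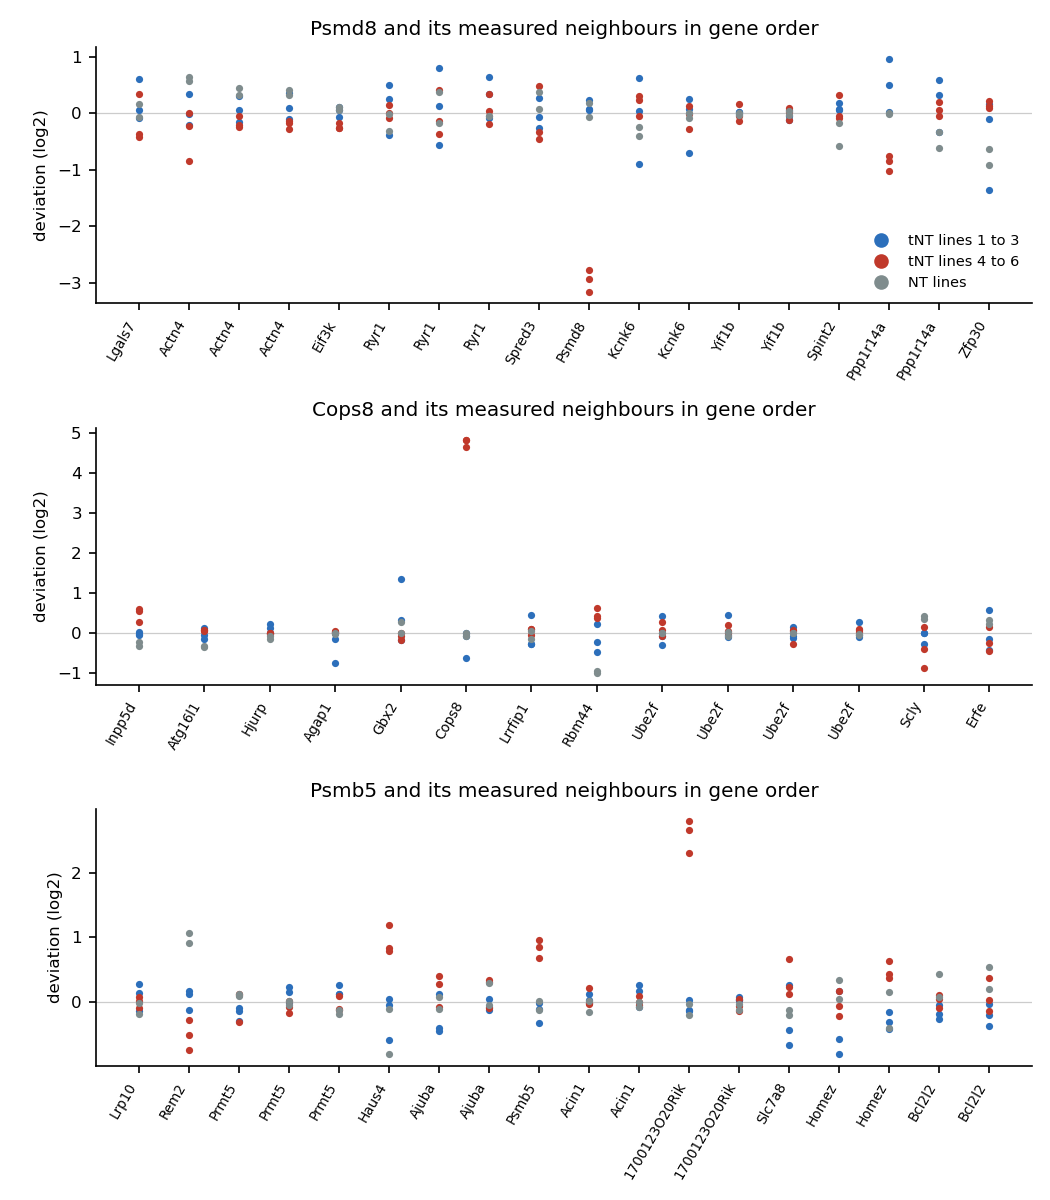
Deviation from each probe's median over 8 arrays (vertical axis, log2) for Psmd8, Cops8, Psmb5 and the probes of their 5 nearest measured genes on each side, in gene order (horizontal axis). Lines 4 to 6 stand apart in Psmd8 and Cops8 far more than in their neighbours, while near Psmb5 a 1700123O20Rik probe, not detected outside lines 4 to 6, reads 6.92 to 7.41 in them and 4.41 to 4.64 elsewhere.

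The design's main comparison asks how tNT lines differ from NT lines. For these subunits the answer was that no probe passed the test. At an adjusted p under 0.05 (limma, Benjamini-Hochberg over all 11671 probes), 0 of 58 member probes were called, against 1.41% of all measured probes. At an unadjusted p under 0.05 there were 3 of 58 (5.17%), against 17.2%. Values of the 2 groups did not overlap for 8 of 58 probes (13.8%), 6 lower and 2 higher in tNT lines, against 20.9%. Of the 58 differences 38 were negative (65.5%, against 50.3% of all probes), with a median of -0.09 against -0.00. The members' median deviation per array ran from -0.04 in line 3 to 0.07 in line 2 among tNT lines and was 0.05 and 0.02 in the NT lines.

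The smallest p belonged to Cops6, a COP9 subunit with the fold of the catalytic one but no catalytic site. Its tNT values were 11.34, 11.04, 11.28, 11.29, 11.15 and 11.14 in lines 1 to 6, all below the NT values of 11.54 and 11.73. The difference of -0.42 ± 0.13 (SE) had an unadjusted p of 0.0078 and did not pass (limma, adjusted p = 0.128). One of 3 probes of the trypsin-like catalytic subunit Psmb7, ILMN_2836147, read 10.25, 10.11, 10.19, 10.16, 10.33 and 10.28 in lines 1 to 6. The NT lines read 10.49 and 10.63 with that probe, and the difference of -0.34 did not pass (limma, adjusted p = 0.172). Its other probes differed by -0.28 and -0.15, so all 3 ran the same way. For Cops7a, a COP9 subunit, probe ILMN_1217296 differed by -0.30 (adjusted p = 0.253). Its other probes differed by -0.26 and 0.08, so they disagreed in sign. Of the 14 genes with several probes, 11 had all probes of one sign.

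**Figure D4:**
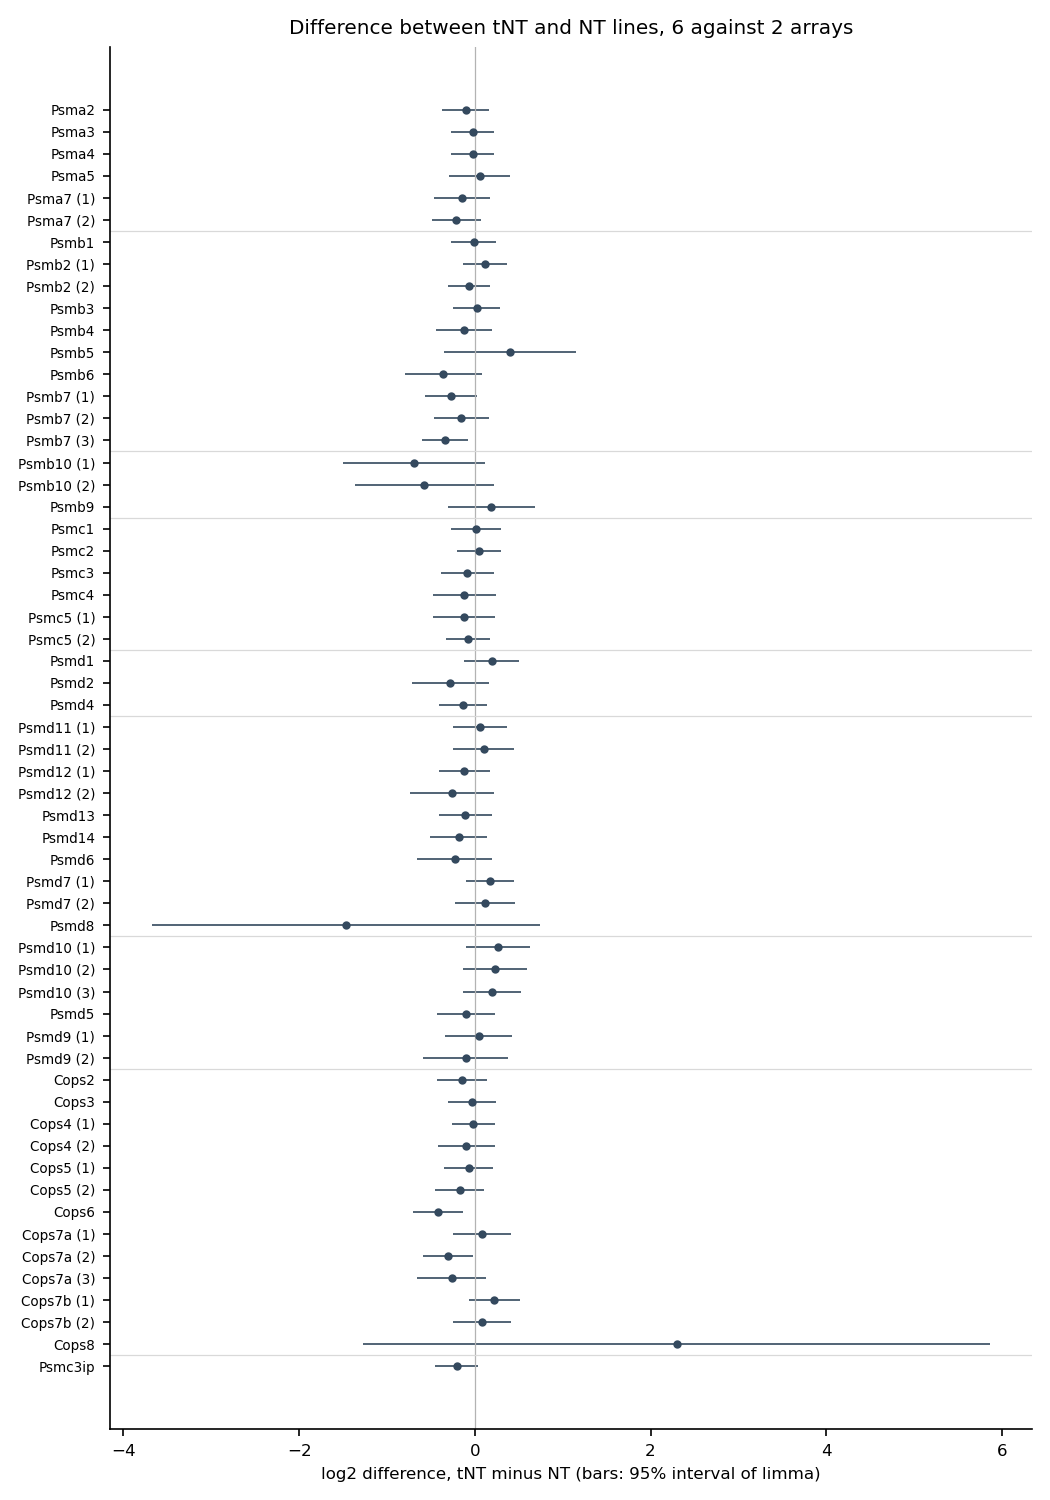
Difference between tNT and NT lines (horizontal axis, log2, tNT minus NT) for each of the 58 measured probes, from limma on 6 against 2 arrays, with bars for the 95% interval. Most points lie within 0.3 of 0 and a little to the left (median -0.09), and Cops8 and Psmd8, which carry no test, have the widest bars.

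By role, the 20S alpha ring (Psma genes, which gate the barrel) had 6 measured probes, 1 higher and 5 lower in tNT lines, with differences from -0.21 to 0.06 and a median of -0.07. Psma2 ranged from 13.26 to 13.57 with a median of 13.41 in tNT lines and read 13.55 and 13.48 in NT lines. Psma7 probe ILMN_2630328 ranged from 11.54 to 11.86 with a median of 11.73, under NT values of 11.99 and 11.86 (difference -0.21, adjusted p = 0.433). Psma1 and Psma6 had a single probe each and were detected on 0 arrays, so nothing was measured for them.

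The standard beta ring had 10 probes, 3 higher and 7 lower, with a median of -0.09 and a range from -0.36 (Psmb6) to 0.40 (Psmb5). Of the non-catalytic subunits in it, Psmb1, Psmb2 and Psmb3 varied little. Psmb4 ranged more widely, from 13.31 to 13.80 in tNT lines, and read 13.58 and 13.63 in NT lines. Psmb2 probe ILMN_2949632 ranged from 12.23 to 12.32 with a median of 12.27 in tNT lines and read 12.37 and 12.30 in NT lines. Psmb3 ranged from 12.87 to 13.07 around a median of 12.97, with NT values of 12.84 and 13.07 spanning nearly the same interval. Among the catalytic ones, Psmb6 ranged from 11.98 to 12.67 with a median of 12.37 and read 12.76 and 12.64 in NT lines (difference -0.36, adjusted p = 0.394).

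The base ATPases, Psmc1 to Psmc5 as measured, had 6 probes with differences from -0.12 to 0.05 and a median of -0.08. Psmc1 ranged from 10.78 to 11.12 with a median of 10.86 in tNT lines, around NT values of 10.95 and 10.83. Psmc6 was detected on 0 arrays. The base scaffold subunits Psmd1 and Psmd2 and the ubiquitin receptor Psmd4 differed by 0.19, -0.28 and -0.14, none of which passed (smallest adjusted p = 0.514).

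The lid had 10 probes of 7 genes, 4 higher and 6 lower, with a median of -0.11. Apart from Psmd8 its differences ran between -0.26 and 0.17. Psmd14, the enzyme that removes ubiquitin chains, ranged from 9.14 to 9.55 with a median of 9.20 and read 9.41 and 9.51 in NT lines (difference -0.19, adjusted p = 0.556). Psmd7, its partner, ranged from 11.56 to 11.82 with probe ILMN_2630438, above NT values of 11.38 and 11.55 (difference 0.17, adjusted p = 0.516). Psmd6 was near the detection limit, on 6 arrays, from 5.27 to 5.79 in tNT lines with NT values of 5.51 and 6.07.

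The assembly chaperones Psmd5, Psmd9 and Psmd10, which help build the base and are not part of the finished complex, had 4 probes higher and 2 lower, with a median of 0.12. All 3 probes of Psmd10, also known as gankyrin, were higher on average in tNT lines, by 0.26, 0.23 and 0.20, and none passed (smallest adjusted p = 0.448). With probe ILMN_3003308 it ranged from 10.03 to 10.58 with a median of 10.35, over NT values of 10.12 and 9.98. The groups overlapped.

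The COP9 signalosome had 13 probes, 4 higher and 9 lower, with a median of -0.07. Its catalytic subunit Cops5, which cuts NEDD8 from cullins, differed by -0.07 and -0.17 by its 2 probes. Cops5 probe ILMN_2662124 ranged from 10.82 to 11.13 with a median of 11.05 and read 11.14 and 11.05 in NT lines. Cops7b, the paralog of Cops7a, had probe ILMN_2628283 from 8.39 to 8.77, above NT values of 8.24 and 8.35 (difference 0.22, adjusted p = 0.427). Cops2, Cops3 and Cops4 differed by -0.14, -0.03, and -0.02 and -0.10 for the 2 probes of Cops4.

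Each COP9 subunit has a counterpart in the lid, so the pairs were set side by side. They were Gps1 with Psmd6, Cops2 with Psmd11, Cops3 with Psmd3, Cops4 with Psmd12, Cops5 with Psmd14, Cops6 with Psmd7, Cops7a and Cops7b with Psmd13, and Cops8 with Psmd8. No probe is annotated to Psmd3, and Gps1 lies outside the naming rule. In the last pair lines 4 to 6 divided from the other arrays by both genes, in opposite directions. The set was selected on these same genes, so their division carries no test of the pairing. No gene of the other pairs had lines 4 to 6 on one side, a division found for 12.2% of all measured probes. Cops6 and Psmd7 differed between the groups with opposite signs (-0.42 against 0.17 and 0.11), none past the test.

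The inducible catalytic subunits varied most among the rest. Psmb10, which replaces Psmb7 in the immunoproteasome, read 8.66, 10.10, 9.20, 8.82, 8.58 and 8.52 in tNT lines 1 to 6 with probe ILMN_2757870. The NT lines read 9.63 and 9.71. Line 2 lay above both NT lines and the 5 other tNT lines below them. The second probe, ILMN_2914843, gave 8.66, 9.85, 9.09, 8.54, 8.46 and 8.26 against 9.33 and 9.44, the same order of groups. The differences of -0.69 ± 0.36 and -0.57 ± 0.35 (SE) did not pass (limma, adjusted p = 0.375 and 0.449). Psmb9, which replaces Psmb6, did not follow. It read 5.57, 6.23, 6.05, 6.45, 6.45 and 5.92 in tNT lines and 5.94 and 5.90 in NT lines, a difference of 0.19 (adjusted p = 0.722). Psmb8, which replaces Psmb5, was detected on 1 array, an NT line at 5.34, and stayed outside the measured set.

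Line 2 decided the call for 1 of the 2 Psmb10 probes. Without line 2, probe ILMN_2757870 fell by 0.91 in tNT lines (limma, adjusted p = 0.026). Probe ILMN_2914843, at -0.78, did not pass (adjusted p = 0.0589), so that fit had 1 of 58 members called, against 5.72% of all probes. Without lines 2 and 3, a choice made after the values were seen, both probes were called, at -1.02 and -0.90 (adjusted p = 0.00711 and 0.0151), as 2 of 58 members against 6.03%. With arrays weighted by their agreement with their group, line 2 had the lowest weight, 0.303, and 5 of 58 members were called, against 13.7%. Those 5 were both Psmb10 probes, Cops6 and 1 probe each of Cops7a and Psmb7, all lower in tNT lines. Each of these member counts is a smaller share than that of all probes called in the same fit.

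Line 2 was also the highest tNT line in the summed interferon-induced genes and in the fibroblast sum, though not in every interferon-induced gene. Of 15 genes fixed as interferon-induced, 9 were measured by 15 probes, several of which share a gene. By the mean 15 of 15 probes were lower in tNT lines, against 50.3% of all probes. None was called (limma, smallest adjusted p = 0.0612, Psme1), against 1.41% of all probes. Their summed intensity was 3692 to 5104 in tNT lines, highest in line 2, and 5374 and 5213 in NT lines. Isg15, a ubiquitin-like protein induced by interferon, read 6.31, 7.42, 5.56, 5.63, 5.65 and 6.37 in tNT lines and 8.09 and 7.67 in NT lines. Gbp2 read 7.04, 8.95, 5.01, 5.16, 6.03 and 5.58 against 8.84 and 8.92, so line 2 was the only tNT line near the NT values. Psme1 and Psme2, the interferon-induced cap of the core, were on this list too, and Psme2 ranged from 7.54 to 8.06 in tNT lines, under 8.36 and 8.26. Line 2 had the lowest Psme2 value of all arrays (7.54), and its Stat2 value (5.38) was above that of line 3 (5.36) only. For Psme1, lines 3 and 4 read higher than line 2 by both probes. The part of these genes or of other cells in the Psmb10 values was not tested.

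**Figure D5:**
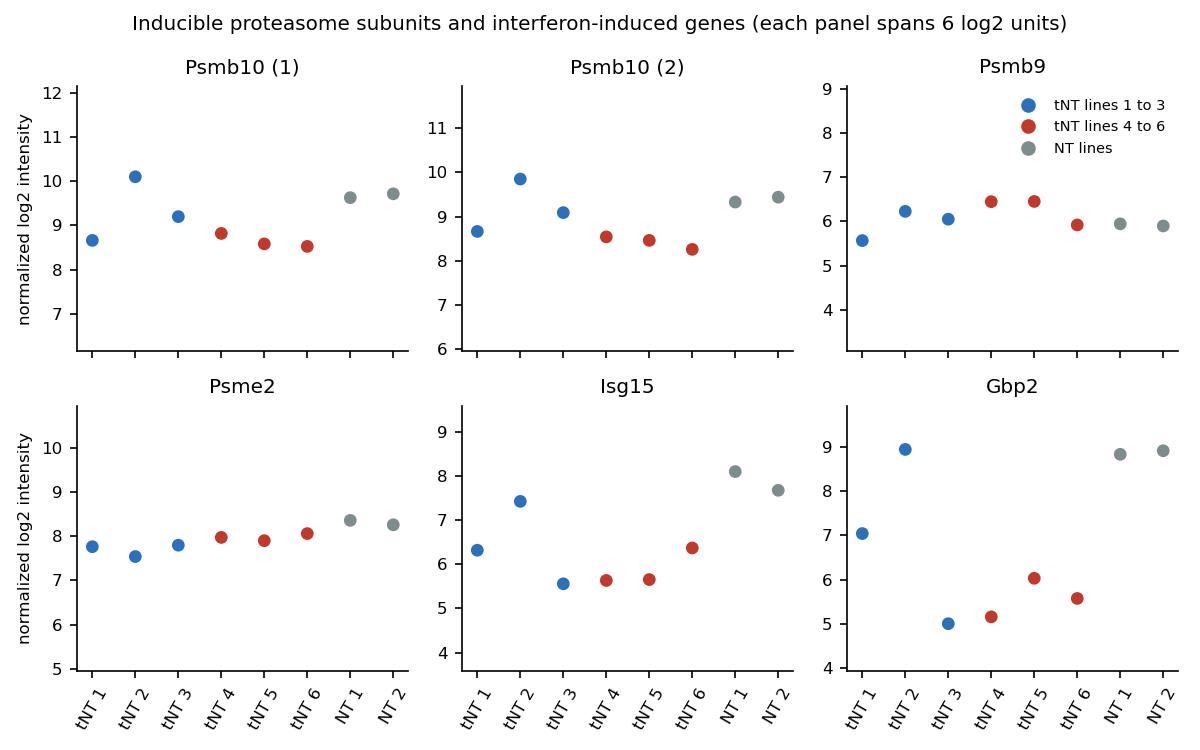
Normalized log2 intensity (vertical axis, each panel spanning 6 log2 units around its own mean) on the 8 arrays (horizontal axis) for both Psmb10 probes, Psmb9, Psme2, Isg15 and Gbp2. tNT line 2 is the highest tNT line for Psmb10 (10.10 and 9.85), Isg15 (7.42) and Gbp2 (8.95), but not for Psmb9 (6.23) or Psme2 (7.54).

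A slope on passage, fitted to the 6 tNT lines, called 0 of 58 members and 0.0% of all probes (limma, smallest adjusted p = 0.998). At an unadjusted p under 0.05 there were 0 of 58 members, against 4.33% of all probes. Psmd2, a base scaffold, had the smallest p of the members, with a slope of 0.038 ± 0.021 (SE) log2 units per passage and an unadjusted p of 0.102. It read 6.01, 6.46, 6.11, 6.72, 6.09 and 6.38 in lines 1 to 6. The slope of Psmd14 was -0.025 (unadjusted p = 0.181), that of 1 Psmd12 probe -0.035 (0.190) and that of 1 Psmb7 probe 0.023 (0.203). Slopes were positive for 24 members and negative for 34, with a median of -0.0043. Lines 4 to 6, at passages 29, 18 and 25, overlap in passage with lines 1 to 3, at 17, 19 and 25.

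Apart from the few subunits above, the members varied little among tNT lines. Their median SD over the 6 lines was 0.15, against 0.23 for all measured probes. An SD under 0.2 was found for 41 of 58 (70.7%), against 41.1% of all. Psmb2 probe ILMN_2949632 had an SD of 0.036, Psma3 of 0.060 and Psma4 of 0.066. An SD over 0.5 was found for 5 of 58 probes, against 611 of 11671 measured probes. They were Cops8 (2.74), Psmd8 (1.69), both Psmb10 probes (0.60 and 0.58) and Psmb5 (0.55). Cops8 and Psmd8 are those the set was selected on, and the SD of Cops8 includes undetected readings. Of the 58 probes 55 were detected on all 8 arrays, and the part of signal level in the lower SD was not tested.

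Other genes of the pathway gave no calls either. Of 25 probes for proteasome regulators and further parts, 8 were higher and 17 lower in tNT lines, with 0 called and no gap of 0.5 for lines 4 to 6. The lowest were Psmg3, an assembly chaperone of the core, at -0.62 (adjusted p = 0.0639) and Psme1 at -0.60 (adjusted p = 0.0612). Of 28 probes for the cullin and NEDD8 pathway, on which the COP9 signalosome acts, 16 were higher and 12 lower, with 0 called. The smallest adjusted p was 0.0553, for a probe of Dcun1d4, a NEDD8 ligase cofactor, at 0.58. Of 14 probes for eIF3, the translation factor built on the same plan as the lid, 5 were higher and 9 lower, with 0 called. In these 3 lists lines 4 to 6 lay on one side for 4 of 25, 1 of 28 and 2 of 14 probes, beside 12.2% of all probes, with gaps of at most 0.13 in size.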

How the data were processed

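Per the file headers, the authors deposited linear bead intensities of every probe, each with its detection p-value. A second deposited table holds the authors' processed values on a log2 scale, each column with a median of 3.49. Per the submitters' processing notes, BeadStudio 3.2, lumi and RMA were used, in roles not stated. The background step behind the processed values and the probe sequences are not given in the sources used here.

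Normalization used neqc of limma 3.58.1 (R 4.3.3, offset 16), which corrects background, equalises the distributions of the arrays and takes log2, so total RNA per cell is not measured. Probes detected as described above were fitted one by one with lmFit and eBayes, 2-sided, with Benjamini-Hochberg adjustment over all 11671 and a threshold of 0.05. Passage was fitted over the tNT lines. For lines 4 to 6 the gap is the distance between the nearest values of the 2 sides, with no test. The number of arrays, 6 against 2, limits precision. Symbols came from the platform annotation, updated through a RefSeq table for 23962 of 25697 probes, and that table gave gene order and, on GRCm38.p6, promoters.

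The members, lists and tests were chosen with earlier results of these data known, and the neighbours of Psmb5, the floor on undetected values and the fit without lines 2 and 3 after their values were seen. Named members are Psmd8, Cops8, those with the 6 largest and 6 smallest differences, the 6 largest SDs, the 3 smallest passage p-values per direction and the 6 largest gaps, the inducible subunits, and COP9 subunits with their lid counterparts. Others named stand as examples of their group. The 8 columns were matched to lines by name, and pairs of arrays shared at most 1 exactly equal intensity. Line numbers are shared by tNT and NT lines 1 and 2. Deviations of same-numbered lines correlated at 0.047 and 0.0021, so the numbers were not taken as pairs. Alternatives covered 4 other normalizations, detection filters, 1 probe per gene, the variance model, array weights, a block by line number and leaving out lines. Fits were tested on simulated data. Python 3.11.15, pandas 2.3.3 and matplotlib 3.10.9 were used for counts and figures.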

Additional observations from a re-analysis of the deposited data

Results flagged for a closer look

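Among the 6 tNT lines, 1 line stood apart from the others in 6 of 58 member probes, as the share of the whole range taken by the gap to the nearest line, by Dixon's test. Chance alone gives about 1 in 20 such cases, and 7.44% of all measured probes met the same limit, against 10.3% of the members. Line 2 was the one apart in 4 of the 6, and in 63.1% of the 868 such probes on the array, close to its share here. It was lowest for a Psmb7 probe (ratio 0.75, 12.12 against 12.40 to 12.50 in the other lines) and for a Psma7 probe (0.629, 11.67 against 11.92 to 12.06). It was highest for the ubiquitin receptor Psmd4 (0.698, 12.76 against 12.46 to 12.55) and for the core subunit Psmb4 (0.663, 13.80 against 13.31 to 13.48). Line 6 was highest for a Cops4 probe (0.657, 8.64 against 8.18 to 8.34), and line 1 was lowest for a Cops7a probe (0.628, 10.39 against 10.72 to 10.92). Other probes of Psmb7, Psma7, Cops4 and Cops7a were not so marked. Outside the measured set, the second Psmd2 probe was detected on 1 array only, tNT line 1, at 5.51, where the highest NT value was 4.89.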

How the results depend on the processing

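Differences between tNT and NT lines kept 0 called members under the 4 other normalizations, the other filters, 1 probe per gene, the variance model and the block. The count became 5 with array weights and 2 without tNT lines 2 and 3, and ranged from 0 to 1 when each line was left out. Calls over all probes, 164, ranged from 8 to 667 on leaving out a line and became 1600 with array weights, 281, 270 and 269 with quantile normalization alone, an offset of 50 and a robust variance trend, 98 with the authors' processed values, 53 without lines 4 to 6 and 704 without lines 2 and 3. No passage call was made among members under any setting run. With array weights, a fit that stopped before convergence, 10 of 58 members had an unadjusted p under 0.05. Over all measured probes that fit made 58 passage calls, none of them a member, against 0 in the main fit. The share of all probes with an unadjusted p under 0.05 in that fit is not given here. The 10 therefore cannot be read as particular to the members. Lines 4 to 6 lay on one side for 6 to 8 members, and 2 to 3 had a gap of at least 0.5. With undetected values raised to their array's lowest detected value, a setting added after the data were seen, these counts stayed at 8 and 3, against 11.7% and 0.771% of all probes. Both counts include Psmd8 and Cops8, on which the set was selected, and so carry no test. Among the 56 other members, 1 had a gap of at least 0.5 in the main values. The gap of Cops8 ranged from 3.02 to 5.52 and that of Psmd8 from -2.86 to -2.20 over the normalizations, and 38 of 58 members were lower in tNT lines in each.

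Some differences changed sign, none of them past the threshold before or after. With the line number as a block, which fits lines 1 and 2 of each group, they became 0.0711 for Cops3, -0.0035 for Cops8, -0.0021 for Psmb5, -0.0243 for Psmb9, 0.0944 for Psmc4 and 0.102 for Psmd8. For 1 probe each of genes with several, they became 0.0369 for Cops4, 0.0239 for Cops5, -0.0886 for Cops7a and 0.0859 for Psmd12. The block changed no call of a member. Without lines 4 to 6 the differences became 0.0215 for Cops3, -0.199 for Cops8, -0.0905 for Psmb5, 0.0526 for Psmc4 and 0.0733 for Psmd8. For 1 probe each they became 0.0132 for Cops4, -0.0265 for Cops7a and -0.0032 for Psmd11. The other probes of Cops4, Cops5 and Cops7a kept their sign in both settings. On leaving out each line, a Cops4 probe ranged from -0.0407 to 0.0049, a Psmd11 probe from -0.0913 to 0.207, Psmd6 from -0.508 to 0.0509 and the passage slope of Psmb5 from -0.0082 to 0.0739. Without lines 2 and 3, a probe of Cops7b became -0.0097. The cause of these changes was not tested beyond the samples left out. Psmd8, Cops8 and Psmb5 rest on 1 probe each, and signals near background, such as Cops8 outside lines 4 to 6, are bounds.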
